A study of Mus musculus with 98 samples.

Results

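The genes described here encode 52 subunits of respiratory complexes I to IV that are read from nuclear DNA: 32 of complex I, 4 of complex II, 6 of complex III and 10 of complex IV. They are a fixed list of subunit names present in all 6 count tables of the study, which hold 25239 or 55367 gene rows each. The list follows subunit names rather than measured values, but it was chosen with earlier results of these data known. The study set cultures and mice given a virus that raises Acss2, which turns acetate into acetyl-CoA, against those given an empty vector, with and without pathological tau. RNA sequencing covered 98 libraries in 22 groups, and a level below is a CPM, the count of a gene scaled to the size of its library by TMM, or its log2.

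Primary embryonic hippocampal neurons of CD1 mice received the virus PhP.eB carrying upACSS2, or its vector, and then hAD-tau or PBS. Unstimulated libraries came from day 9 or day 21 in vitro, and stimulated ones from day 21, with 3 libraries in each of the 12 groups. A further day 21 culture had no virus and compared hAD-tau (n = 4) with PBS (n = 3). The mice were all male and received upACSS2 or vector. Aged C57BL6 mice of 22 to 23 months were sampled 2 months after injection as whole hippocampus (n = 12 and 12). C57BL6 mice of 10 months were sampled after 2 weeks as dorsal hippocampus (n = 6 upACSS2 and 5 vector). PS19 mice, which carry a mutant human tau transgene driven by the Prnp promoter, were injected at 2.5 months. They were sampled 1 month later at 3.5 months of age or 6 months later at 8.5 to 9 months (n = 5 in each of 4 groups). Mouse tissue was taken 30 min after behaviour.

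Complexes I, III and IV pump protons across the inner mitochondrial membrane while passing electrons from NADH to oxygen. Complex II feeds in electrons from succinate without pumping, and it is also an enzyme of the TCA cycle. The catalytic cores of complexes I, III and IV contain proteins made from mitochondrial DNA, so cells assemble them from products of both genomes. Neurons depend on this chain for most of their ATP, and transcription factors such as NRF1, GABP (an ETS factor) and the ERR family are known to act on its nuclear genes.

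A promoter entry was found for 43 of the 52 genes in RefSeq (GRCm38.p6), and 250 bases upstream of the start are shown for 5 of them. The first 4 are the member of each complex with the largest mean rise between culture days among those with an entry. Sdhd is added as a member that passed the test in no arm of that comparison. Capitals mark matches to the core of the NRF1 site (GCGCA, any 1 base, then GCGC) or to CCGGAAG, the core of the ETS site, each searched on both strands.
Ndufa13 (chr8:69902021-69902270, minus strand): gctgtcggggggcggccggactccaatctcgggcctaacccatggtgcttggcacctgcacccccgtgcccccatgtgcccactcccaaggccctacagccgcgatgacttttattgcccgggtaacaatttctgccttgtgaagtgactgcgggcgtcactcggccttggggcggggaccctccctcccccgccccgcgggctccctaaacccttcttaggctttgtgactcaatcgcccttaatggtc
Sdha (chr13:74350241-74350490, minus strand): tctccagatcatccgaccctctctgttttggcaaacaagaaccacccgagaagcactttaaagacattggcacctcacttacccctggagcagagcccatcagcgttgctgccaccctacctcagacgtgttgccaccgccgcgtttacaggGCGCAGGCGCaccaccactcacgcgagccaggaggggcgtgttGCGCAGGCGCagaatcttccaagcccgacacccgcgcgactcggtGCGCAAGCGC
Uqcrh (chr4:116075071-116075320, minus strand): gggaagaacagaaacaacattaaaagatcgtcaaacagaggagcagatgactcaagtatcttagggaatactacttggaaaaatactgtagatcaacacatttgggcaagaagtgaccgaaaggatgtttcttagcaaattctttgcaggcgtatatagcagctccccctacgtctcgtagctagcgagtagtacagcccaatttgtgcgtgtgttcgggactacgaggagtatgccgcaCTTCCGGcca
Cox8a (chr19:7217617-7217866, minus strand): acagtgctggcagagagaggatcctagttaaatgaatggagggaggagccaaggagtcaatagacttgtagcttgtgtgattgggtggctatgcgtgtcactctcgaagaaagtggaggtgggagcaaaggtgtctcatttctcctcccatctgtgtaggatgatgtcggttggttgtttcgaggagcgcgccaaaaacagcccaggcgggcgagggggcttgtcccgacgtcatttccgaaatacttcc
Sdhd (chr9:50603850-50604099, minus strand): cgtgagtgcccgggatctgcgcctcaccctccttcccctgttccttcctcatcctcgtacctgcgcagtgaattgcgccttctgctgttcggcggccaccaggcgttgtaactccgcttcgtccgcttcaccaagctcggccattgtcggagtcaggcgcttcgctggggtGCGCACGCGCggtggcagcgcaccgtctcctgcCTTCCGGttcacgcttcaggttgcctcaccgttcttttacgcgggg
Sdha held 3 NRF1 matches, the nearest directly before the start. Uqcrh held 1 ETS match within 10 bases of the start, and Sdhd held 1 match of each kind. Ndufa13 and Cox8a, the members with the largest rises of complexes I and IV, held neither in this window. The Ndufa13 window lies inside the annotated gene (chr8:69894180-69902558), so bases upstream of its outer start are not shown. Over the 43 genes, 9 held the NRF1 letters (20.9%, against 4.23% of all gene symbols with an entry) and 7 held the ETS letters (16.3%, against 7.83%). The ERR letters AAGGTCA were found in 3 (6.98%, against 4.70%) and the YY1 letters AAGATGGC in 0 (against 1.83%). No entry was found for Cox4i1, Cox6c, Ndufa2, Ndufb9, Ndufs1, Sdhc, Uqcrb, Uqcrc2 and Uqcrq.

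Libraries held 5075099 to 39985460 counts, and the 52 genes took 0.458 to 0.908% of them. Acss2 checked the virus labels: the neuron libraries with upACSS2 held 1496 to 5459 CPM and those with vector 40.3 to 57.6 CPM. In mice the separation was smaller. Acss2 was 50.2 to 59.5 against 41.9 to 48.2 CPM at 10 months, and the ranges overlapped in aged mice (46.0 to 61.5 against 39.8 to 53.8) and in PS19 mice at 1 month (60.2 to 1461 against 51.1 to 66.1) and 6 months (43.7 to 241 against 42.7 to 56.3). Groups follow the sample titles. The treatment entry contradicts the title for vector with tau, for upACSS2 with PBS, for PS19 upACSS2 at 1 month and for 1 PS19 vector library at 1 month, and PS19 upACSS2 at 1 month is labelled whole hippocampus where the other PS19 groups are labelled dorsal. Replicates are separate samples in the labels, so p-values measure the spread between these samples, which may be technical in the cultures. Ndufs5 and Ndufb2 are uncertain. Ndufs5 was at 0 to 0.0860 CPM in the unstimulated neurons, where its pseudogene Ndufs5-ps held 4.36 to 9.54 CPM, but at 19.9 to 30.0 CPM in the culture without virus. It was left out of all complex means, which cover 51 members. Ndufb2 was at 38.4 to 65.9 CPM in the unstimulated neurons and at 8.61 to 12.3 CPM in the culture without virus, tables whose gene annotations differ.

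Per kilobase of transcript, the 5 highest members in day 9 vector neurons with PBS were complex IV subunits, and other subunits of that complex lay lower. In day 9 vector neurons with PBS, Cox4i1, a regulatory subunit around the catalytic core of cytochrome oxidase, had the highest level at 497 ± 38.7 CPM per kb (SD, n = 3). Cox6b1 (368 ± 11.8), Cox6a1 (358 ± 26.4), Cox6c (336 ± 19.7) and Cox8a (321 ± 7.46) followed, and each was within the summed SDs of its neighbour in that order except Cox4i1. In vector mice of 10 months Cox4i1 was again highest at 827 ± 66.1 CPM per kb (n = 5), ahead of Cox8a at 487 ± 27.6 and Cox6a1 at 454 ± 71.6. Ndufb4, a complex I accessory subunit, was among the lowest members, at 10.2 CPM per kb in the neurons and 13.2 in the mice.

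The first comparison asked what changed between day 9 and day 21 of culture. Respiratory chain genes rose together in all 4 arms, with 40 of 51 tested members higher in vector with PBS, 38 in vector with tau, 41 in upACSS2 with PBS and 32 in upACSS2 with tau, and 0 lower in any arm (edgeR quasi-likelihood test, Benjamini-Hochberg adjusted p under 0.05). Many other genes moved too: 30.6%, 27.7%, 28.5% and 27.2% of all genes tested were higher in the same 4 comparisons (57.7%, 52.6%, 54.3% and 53.6% called in either direction). The median member changed by 0.41, 0.43, 0.43 and 0.31 on the log2 scale, against 0.05, 0.04, 0.03 and 0.01 for all genes. Of the 51 members, 28 were called higher in all 4 arms, 10 in 3, 2 in 2, 5 in 1 and 6 in none. In bulk RNA, fewer cells of a type and less RNA per cell cannot be told apart, and the cell makeup of the cultures also changed, as given below.

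**Figure D1:**
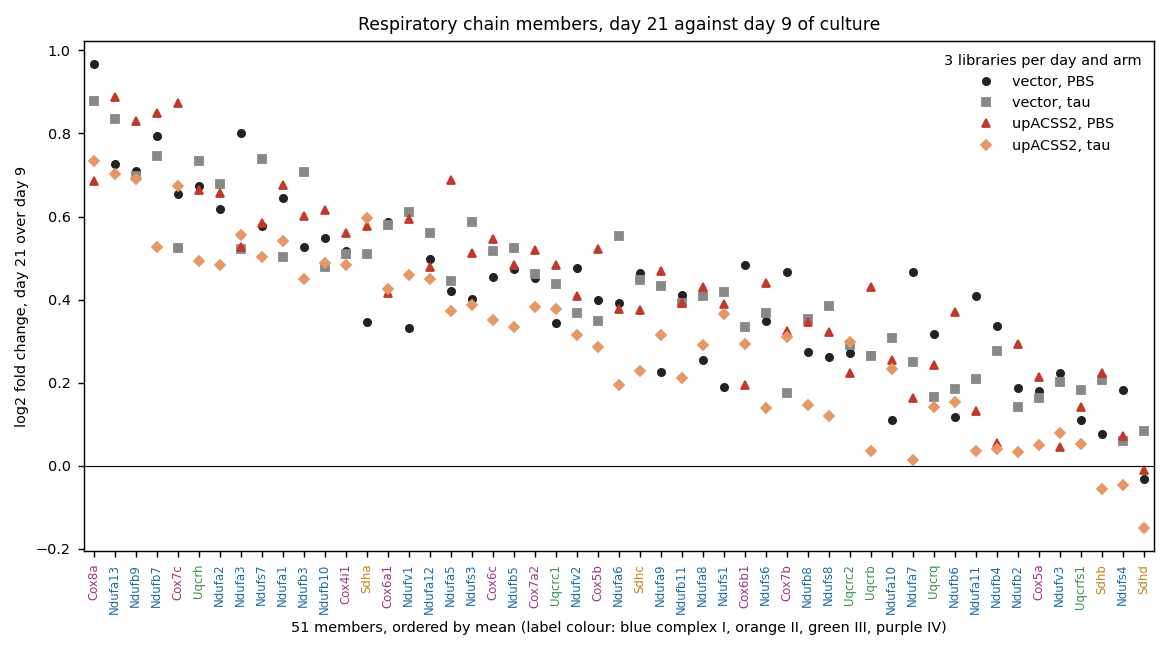
Log2 fold change of each tested complex I to IV gene between day 21 and day 9 (vertical axis), with genes along the horizontal axis ordered by their mean and 1 symbol for each of the 4 arms of virus and tau. The medians lie at 0.31 to 0.43, and only 1, 0, 1 and 3 members lie below 0 in vector with PBS, vector with tau, upACSS2 with PBS and upACSS2 with tau.

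Complex IV is the oxidase that passes electrons to oxygen. Cox8a, a small membrane subunit and the member with the largest rise in every arm except upACSS2 with PBS, where Ndufa13 of complex I had it, read 172, 180 and 177 CPM at day 9 and 324, 423 and 290 CPM at day 21 in vector with PBS. All 3 day 21 libraries were above all 3 at day 9, and the log2 fold change was 0.97 (SE 0.11, adjusted p 3.1e-07). Its change in the other arms was 0.88 in vector with tau, 0.69 in upACSS2 with PBS and 0.73 in upACSS2 with tau. Called members of complex IV numbered 9, 8, 8 and 9 of 10 in the order of arms used above. Cox5a, which sits beside the catalytic core, was called in no arm, at 157, 173 and 149 CPM on day 9 and 182, 202 and 158 CPM on day 21 in vector with PBS.

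In complex I, the NADH dehydrogenase, 25, 25, 26 and 19 of 31 members rose. Ndufa13, an accessory subunit, read 104, 109 and 95.2 CPM at day 9 and 164, 192 and 155 CPM at day 21 in vector with PBS, without overlap (log2 fold change 0.73). It rose by 0.84, 0.89 and 0.70 in the other arms. Ndufb7, another accessory subunit, went from 41.4, 46.5 and 41.5 CPM to 71.0, 82.4 and 71.3 CPM (0.79), and Ndufa3 rose by 0.80 in that arm. Subunits of the catalytic core rose as well, with Ndufs7, which carries an iron-sulfur cluster, among the 28 members called in every arm (0.74 in vector with tau). Ndufs4, an accessory subunit whose loss causes Leigh syndrome, was called in none, at 65.3, 71.1 and 63.8 CPM on day 9 and 66.8, 94.8 and 66.2 CPM on day 21 in vector with PBS. The high value is from day 21 replicate 2, a library described with the complex means below.

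In complex III, the cytochrome bc1 complex, 4, 3, 5 and 3 of 6 members rose. Uqcrh, the hinge protein that binds cytochrome c1, went from 115, 120 and 108 CPM to 176, 209 and 163 CPM in vector with PBS (log2 fold change 0.67). Uqcrc1, a core protein of the complex, rose by 0.34, 0.44, 0.48 and 0.38 in the 4 arms. Uqcrfs1, the Rieske iron-sulfur protein, was called in no arm.

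Complex II split. Sdha, the flavoprotein that oxidises succinate, rose in every arm, by 0.35, 0.51, 0.58 and 0.60, with 348, 343 and 336 CPM at day 9 and 457, 425 and 426 CPM at day 21 in vector with PBS. Sdhc, a membrane anchor, rose by 0.46, 0.45 and 0.38 in the first 3 arms and did not pass in upACSS2 with tau (0.23, adjusted p 0.079). Sdhb, the iron-sulfur subunit, was called in no arm: 131, 144 and 125 CPM at day 9 and 119, 177 and 126 CPM at day 21 in vector with PBS (0.08, adjusted p 0.59). Sdhd, the other anchor, was also called in none, with 140, 148 and 137 CPM at day 9 and 123, 168 and 125 CPM at day 21 (-0.03, adjusted p 0.81). The day 21 libraries of Sdhd lay on either side of those from day 9. Those of Sdhb also reached below and above the day 9 libraries, with the value of 126 CPM inside their range.

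Averaged over the 51 members, the level went from 6.54 ± 0.06 to 6.94 ± 0.20 log2 CPM in vector with PBS, from 6.44 ± 0.04 to 6.87 ± 0.14 in vector with tau, from 6.41 ± 0.04 to 6.85 ± 0.15 in upACSS2 with PBS and from 6.45 ± 0.04 to 6.75 ± 0.05 in upACSS2 with tau (SD, n = 3 in each group). The 2 days did not overlap in any arm. In each arm replicate 2 was the highest day 21 library in the means of all 4 complexes. That library of vector with PBS also had 10.98% of its counts on the ribosomal RNA gene Rn45s, and without replicate 2 the counts called were 27 in vector with PBS, 31 in vector with tau, 31 in upACSS2 with PBS and 28 in upACSS2 with tau. Whether the rise differed by virus or by tau was tested as an interaction: 0 members passed for virus in PBS (3 at unadjusted p under 0.05, against 0.0404% of all genes past the adjusted threshold) and 0 for tau in vector (2 unadjusted, 0.00673% of all genes), and DESeq2 also called 0 in each.

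Other genes of the pathway were read in vector with PBS against the 30.6% of all genes that were higher there. All 9 other respiratory subunits measured were higher (median 0.46, largest Ndufc2 at 0.69), as were 9 of 16 subunits of complex V, the ATP synthase (Atp5g2, part of its membrane ring, 0.91). Of 6 tissue-specific isoforms tested, 4 were higher, led by Cox6a2, an isoform best known from muscle, at 3.20. Assembly factors split, with 15 higher and 3 lower of 40 (Sdhaf3 1.16, Coa7 -0.76), and so did TCA cycle enzymes, with 4 higher and 1 lower of 13 (Suclg2 1.22, and citrate synthase Cs -0.29). Among 14 regulators, 4 were higher and 1 lower, so for regulators and TCA cycle enzymes the share higher was near that of all genes. Ppargc1a, a coactivator of mitochondrial genes, rose by 0.46 (adjusted p 0.00019), Gabpa by 0.34 (adjusted p 0.046) and Gabpb2 by 1.01, Pprc1 fell by 0.60, and Nrf1, Tfam and Esrra were not called.

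Markers of other cells moved with culture day. In vector with PBS, 7 of 8 astrocyte markers were higher, and their summed level went from 2166 to 2414 CPM at day 9 to 4162 to 19060 CPM at day 21. All 4 oligodendrocyte precursor markers (252 to 296, then 913 to 1311 CPM) and 5 of 6 oligodendrocyte markers (41.6 to 45.7, then 349 to 833 CPM) were higher. Of 8 neuron markers, 2 were higher and 3 lower, with sums of 9016 to 9266 and then 4882 to 7624 CPM. Cytosolic ribosomal protein genes, short and abundant like the members, had 15 of 38 higher (median 0.32), and all genes with transcripts under 1 kb had a median of 0.29, where 34 of the 52 members have such transcripts. Genes of that length with log2 CPM of at least 5 had a median of 0.20. With a trend on transcript length removed from each library, 27, 28, 32 and 32 members were called in the 4 arms (25, 28, 31 and 31 of them higher), with medians of 0.16, 0.19, 0.25 and 0.24. The part of cell makeup in the rise was not tested.

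**Figure D2:**
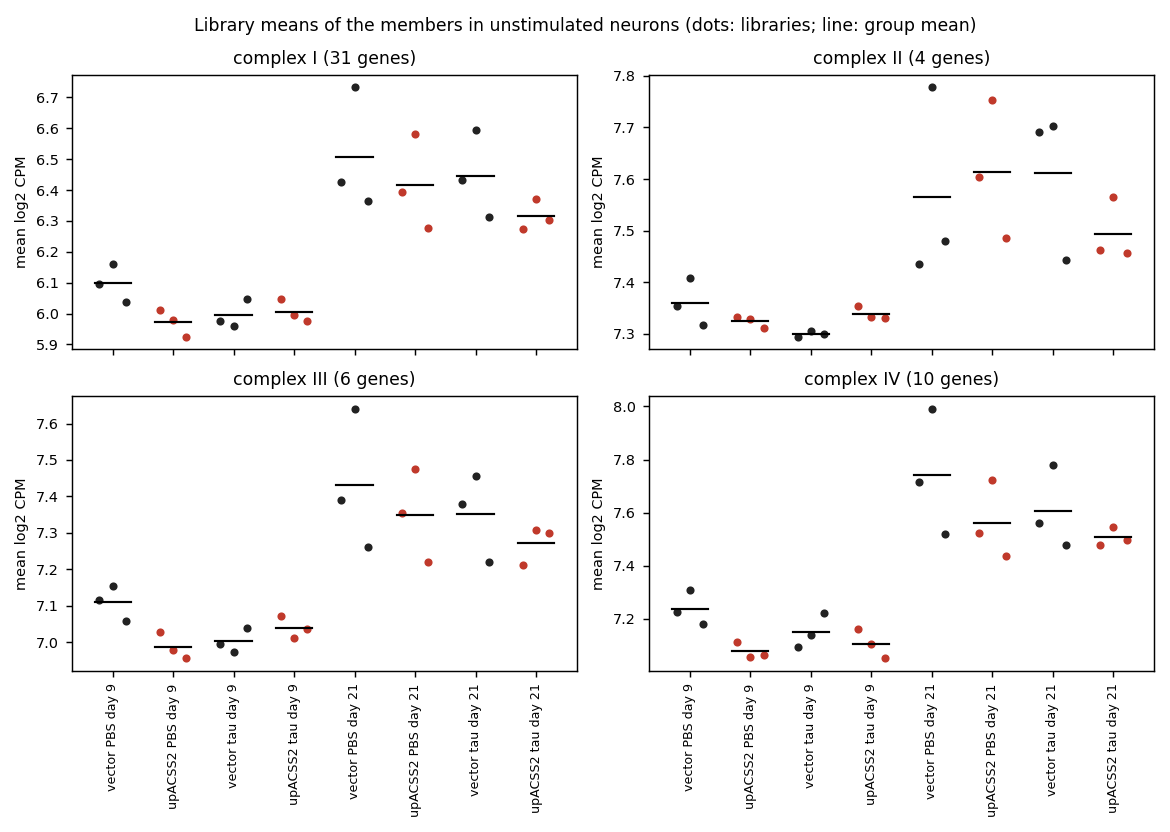
Mean log2 CPM over the members of each complex (vertical axis) in each unstimulated neuron library (dots, 3 per group), with a line at the group mean, upACSS2 in red and vector in black. Every day 21 library lies above every day 9 library of its arm in all 4 complexes, and the highest library in each panel is a day 21 vector PBS library.

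Within day 9, upACSS2 was compared with vector. In the absence of tau, 20 of 51 members fell in upACSS2 neurons and 0 rose, where 5.35% of all genes were lower and 10.2% were called in either direction. The median member changed by -0.12 on the log2 scale (all genes 0.00). The called members were 12 of 31 in complex I, 1 of 4 in complex II, 2 of 6 in complex III and 5 of 10 in complex IV. For 27 members every upACSS2 library was below every vector library (14.3% of all genes), and for 3 every one was above (15.6% of all genes).

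Cox7c, a small complex IV subunit, had the largest fall: 48.7, 47.8 and 45.7 CPM in vector and 33.3, 31.4 and 34.8 CPM in upACSS2 (log2 fold change -0.52, SE 0.12, adjusted p 0.0080). Cox6c, another small subunit of the oxidase, read 199, 217 and 194 against 161, 164 and 158 CPM (-0.34, adjusted p 0.0020). In both genes every upACSS2 library was below every vector library. In complex I, Ndufa1, an X-linked subunit needed for assembly, read 45.6, 47.1 and 46.5 against 35.0, 34.8 and 34.5 CPM (-0.41, adjusted p 0.0038). Ndufs6, an accessory subunit, read 48.4, 51.3 and 47.1 against 39.3, 39.4 and 37.9 CPM (-0.33, adjusted p 0.0031), and Ndufa5 fell by 0.40. These were the 3 largest falls of complex I without overlap. Uqcrb, which binds ubiquinone in complex III, read 57.5, 59.1 and 55.2 against 48.6, 47.1 and 46.6 CPM (-0.27), and Uqcrh fell by 0.22. Sdha was the 1 called member of complex II, at 348, 343 and 336 against 314, 305 and 306 CPM (-0.15, adjusted p 0.0099).

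With tau added the same comparison called 0 of 51 members (0.692% of all genes; 3 members at unadjusted p under 0.05 in edgeR, 0 in DESeq2), with a median of -0.02. Cox7c read 29.6, 45.8 and 47.1 CPM in vector with tau and 42.5, 33.2 and 30.8 CPM in upACSS2 with tau, so both groups covered nearly the same range. The lowest p belonged to Ndufs3, a core subunit of complex I, at 51.2, 52.4 and 49.9 CPM in vector and 54.9, 59.1 and 59.4 CPM in upACSS2 (0.16, adjusted p 0.15). The difference between the PBS and tau results, tested as an interaction, passed for 0 members (19 unadjusted, against 0.663% of all genes past the adjusted threshold). That test called 6 members in DESeq2, 11 with no filter on low counts, and 11 in edgeR without vector tau replicate 3.

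Tau against PBS in vector neurons called 2 members lower and 0 higher (2.27% of all genes lower, 4.28% in all). Ndufs1, the largest core subunit of complex I, read 166, 169 and 161 CPM with PBS and 141, 144 and 150 CPM with tau (-0.18, adjusted p 0.024). Ndufa6, an accessory subunit, read 62.3, 69.5 and 61.4 against 51.6, 56.6 and 57.9 CPM (-0.21, adjusted p 0.044). Both calls were lost without any 1 of vector tau replicate 1, vector tau replicate 2, vector PBS replicate 1 or vector PBS replicate 2 (0 members called), and 11 members were called without vector tau replicate 3. In upACSS2 neurons tau changed 0 members (0.349% of all genes; 2 unadjusted in edgeR, 0 in DESeq2), and the lowest p was that of Uqcrh (0.12, adjusted p 0.47). These comparisons share libraries: vector PBS enters both the virus and the tau comparison.

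**Figure D3:**
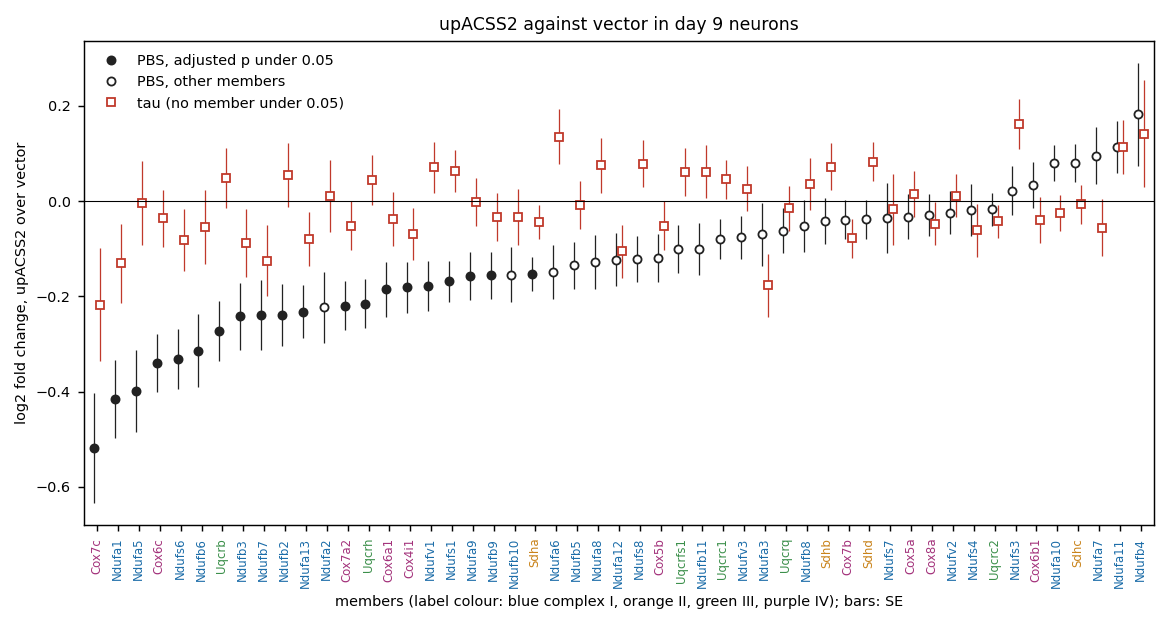
Log2 fold change of upACSS2 over vector at day 9 (vertical axis, bars are SE) for the 51 tested members along the horizontal axis, with circles for PBS (filled where called) and squares for tau. The 20 filled circles all lie below 0, from Cox7c at -0.52 to Sdha at -0.15, and no square is called.

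The fall in PBS neurons came with changes outside the chain. Of the 9 other respiratory subunits 2 were lower, including cytochrome c (Cycs, -0.38), and so were 9 of 16 complex V subunits (Atp5e -0.34) and 10 of 38 ribosomal protein genes (Rps23 -0.37). Assembly factors had 2 higher and 5 lower of 40 (Cox10 0.25, and the copper chaperone Cox17 -0.59). Ppargc1a, Nrf1, Gabpa, Esrra and Tfam were not called. Markers of dividing cells were lower in 4 of 4 (summed level 50.001 to 67.4 CPM in vector, 38.5 to 43.0 in upACSS2), as were 3 of 4 oligodendrocyte precursor markers (252 to 296, then 240 to 268 CPM). Genes with transcripts under 1 kb had a median of -0.08, and with the length trend removed 15 members were called, 12 lower and 3 higher, with a median of -0.05. The part of these in the result was not tested. The count of 20 was 7 without vector PBS replicate 2, 13 without vector PBS replicate 1, 11 without upACSS2 PBS replicate 2 and 12 without upACSS2 PBS replicate 3, and a fit to all 24 libraries, in which day 9 shares the wider spread of day 21, called 0.

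At day 21 the same 4 comparisons called 0 members each (0.0137%, 0.0273%, 0% and 0% of all genes). At unadjusted p under 0.05, edgeR counted 4 members for upACSS2 in PBS, 2 for upACSS2 in tau, 1 for tau in vector and 0 for tau in upACSS2, and DESeq2 called 0 in each. The medians were -0.12, -0.10, -0.09 and -0.09, with 40, 47, 38 and 43 of 51 members below 0. All genes with transcripts under 1 kb had medians of -0.16, -0.14, -0.09 and -0.08. Of those genes 23.2%, 24.1%, 32.7% and 34.9% were above 0, so the direction was not particular to the members. Ndufa1 had the lowest p for upACSS2 in PBS, at 71.6, 82.8 and 63.5 CPM in vector and 51.3, 58.0 and 57.9 CPM in upACSS2 (-0.39, adjusted p 0.21). The biological coefficient of variation was 0.189 in this fit, against 0.0420 at day 9, so smaller changes were detectable at day 9.

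In stimulated day 21 neurons 0 members passed in any comparison (0.208% of all genes for upACSS2 in PBS, 0.937% for upACSS2 in tau, 3.02% for tau in vector and 0.208% for tau in upACSS2). The counts at unadjusted p under 0.05 were 3, 1, 2 and 0 in edgeR, and DESeq2 called 0 in each. Ndufb3, a complex I accessory subunit, had the lowest p for upACSS2 in tau, at 88.8, 70.9 and 77.4 CPM in vector and 64.6, 65.0 and 69.5 CPM in upACSS2 (-0.26, adjusted p 0.16). Ndufa9 did for upACSS2 in PBS (0.23), Uqcrq for tau in vector (-0.27) and Sdhc for tau in upACSS2 (-0.14).

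Stimulated and resting day 21 libraries come from separate tables, so their levels are set side by side on a joint scaling with no test. Fos, a gene switched on by neuronal activity, was 5.12 to 5.71 higher on the log2 scale in stimulated libraries. Respiratory chain members were lower on average in every arm: the mean over 51 members differed by -0.27 in vector with PBS, -0.22 in vector with tau, -0.14 in upACSS2 with PBS and -0.09 in upACSS2 with tau. Members below 0 numbered 51, 51, 48 and 47 of 51. Those with every stimulated library below every resting one numbered 29, 13, 8 and 18, against 10.97%, 7.84%, 11.6% and 11.03% of all genes. Ndufa6 in vector with PBS had means of 59.97 ± 5.73 CPM stimulated and 87.9 ± 17.5 CPM resting (SD, n = 3). The resting vector PBS group held the library with the largest share of counts from the members (0.908%), and table and stimulation cannot be told apart.

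In the day 21 culture without virus, tau changed 0 of 52 members (0% of all genes; 3 unadjusted in edgeR, 0 in DESeq2). The mean level was 6.59 ± 0.04 log2 CPM with tau (n = 4) and 6.61 ± 0.23 with PBS (n = 3). Cox5a had the lowest p, at 104, 122, 112 and 116 CPM with tau and 137, 130 and 200 CPM with PBS, without overlap (-0.47, adjusted p 0.32).

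In C57BL6 mice no member passed the test. In 10-month mice upACSS2 and vector differed at 0 of 52 members (0% of all genes past the adjusted threshold; 13 members at unadjusted p under 0.05 in edgeR, 0 in DESeq2). All 52 estimates were below 0, with a median of -0.19 (all genes -0.01), and the mean level was 6.36 ± 0.15 log2 CPM in upACSS2 (n = 6) and 6.53 ± 0.13 in vector (n = 5). Cox7b, a small complex IV subunit, had the lowest p, at 128, 124, 103, 93.3 and 106 CPM in vector and a lowest of 71.7, a median of 90.2 and a highest of 111 CPM in upACSS2 (-0.33, adjusted p 0.52). The groups overlapped. Transcripts under 1 kb had a median of -0.15 over all genes, with 12.5% above 0, so the direction was not particular to the members. Among those with log2 CPM of at least 5 the median was -0.13.

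In aged mice 0 of 52 members passed (0% of all genes; 6 unadjusted in edgeR, 0 in DESeq2), with 50 estimates below 0 and a median of -0.09. Over all genes with transcripts under 1 kb the median was -0.05, with 25% above 0. Among those with log2 CPM of at least 5 the median was -0.07. The mean level of the members was 6.45 ± 0.13 in upACSS2 and 6.53 ± 0.18 in vector (SD, n = 12 each). Uqcrb ranged from 44.2 to 56.9 CPM with a median of 49.1 in upACSS2 and from 41.2 to 64.6 CPM with a median of 59.3 in vector (-0.17, adjusted p 0.84). Replicates 1 to 3 of both groups were lower on average than replicates 4 to 12. The sample labels name no such sets, so this split rests on the member levels themselves. The differences within the sets were not tested. Within the first set the groups differed by 0.00 in mean level (6.26 ± 0.03 and 6.26 ± 0.12, n = 3 each) and within the second by -0.11 (6.52 ± 0.07 and 6.63 ± 0.07, n = 9 each).

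**Figure D4:**
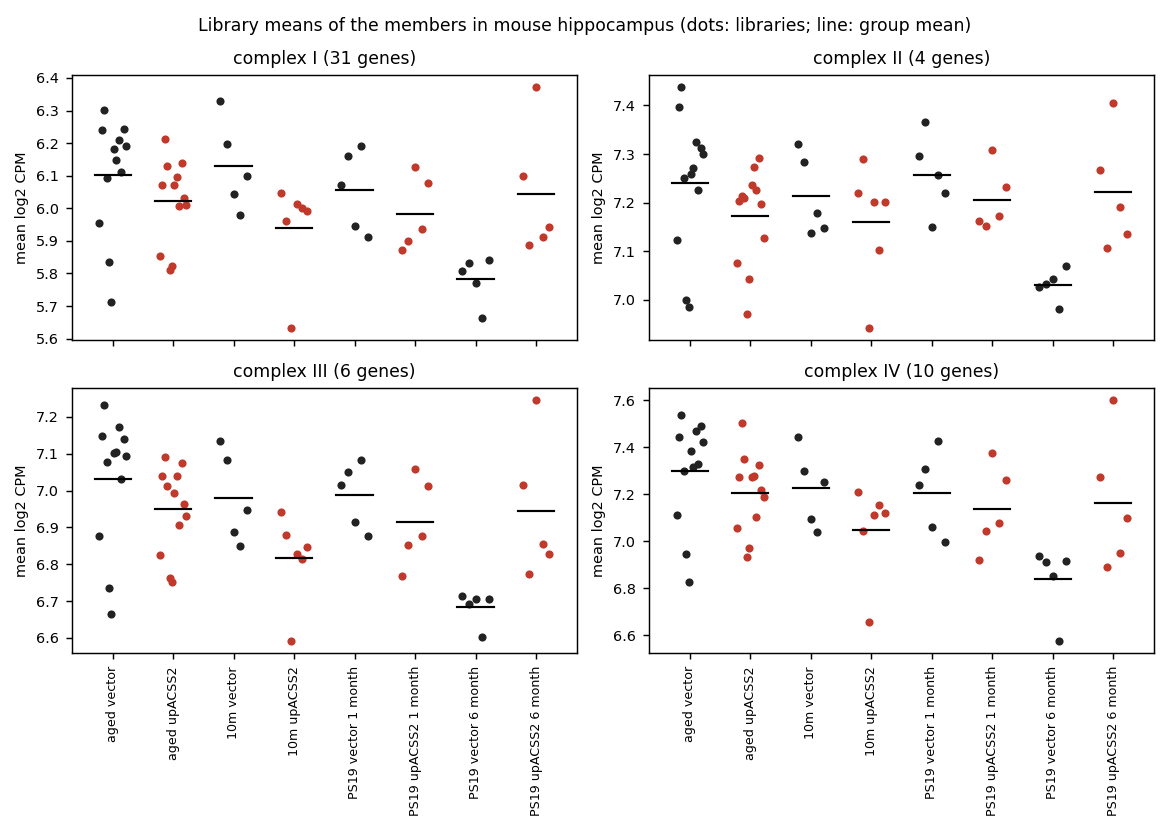
Mean log2 CPM over the members of each complex (vertical axis) in each hippocampus library, by mouse group (dots are libraries), with a line at the group mean, upACSS2 in red and vector in black. PS19 vector mice at 6 months have the lowest group mean in every complex (5.78 in complex I, against 6.06 in PS19 vector mice at 1 month).

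In PS19 mice with vector, respiratory chain genes were lower 6 months after injection than 1 month after. The test called 17 of 52 members lower and 0 higher (2.87% of all genes lower, 7.46% called in all), with 51 estimates below 0 and a median of -0.31 (all genes 0.01). Genes with transcripts under 1 kb also had a median below 0, at -0.21, with 21.0% of them above 0. Those with log2 CPM of at least 5 had a median of -0.27. Called members were 9 of 32 in complex I, 1 of 4 in complex II, 3 of 6 in complex III and 4 of 10 in complex IV. The mean level was 6.19 ± 0.08 log2 CPM at 6 months and 6.49 ± 0.12 at 1 month (SD, n = 5), without overlap, and 21 members had no overlap in that direction (3.97% of all genes). Age and time after injection rise together in this comparison and cannot be told apart.

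Cox4i1 read 528, 559, 481, 558 and 461 CPM at 1 month and 367, 365, 381, 348 and 363 CPM at 6 months (log2 fold change -0.51, SE 0.12, adjusted p 0.014). Cox6c read 215, 239, 200, 254 and 194 against 163, 157, 150, 121 and 156 CPM (-0.57, adjusted p 0.036). Both oxidase genes were lower in every older library. Ndufb11, an X-linked complex I subunit, read 79.3, 93.2, 71.0, 79.6 and 70.1 against 53.7, 55.7, 53.8, 51.2 and 58.2 CPM (-0.54, adjusted p 0.013). Sdhb read 143, 150, 122, 127 and 129 against 99.8, 100, 101, 96.3 and 107 CPM (-0.42, adjusted p 0.013), and it was the called member of complex II. In CPM the 6-month libraries of these genes were also closer to each other than the 1-month ones, but around lower levels. Relative to its level, the spread of Cox6c was not clearly smaller at 6 months. The Rieske protein Uqcrfs1 had the lowest adjusted p of the members, 0.0072, at 137, 143, 129, 138 and 127 against 111, 111, 103, 116 and 110 CPM (-0.30). Other falls were those of Ndufa2 (-0.51), Ndufa13 (-0.49), Uqcrb (-0.39) and Cox7a2 (-0.52).

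In PS19 mice with upACSS2 the same comparison called 0 members (0.0442% of all genes; 2 unadjusted in edgeR, 0 in DESeq2), and the median was 0.07. The 17 members called in vector mice, a set chosen by their fall there, had a median of 0.05 here, from -0.11 to 0.14, with 13 above 0. The 35 members not called in vector mice were similar, with a median of 0.08 and 28 above 0. Cox4i1 read 420, 412, 638, 464 and 508 CPM at 1 month and 447, 426, 578, 416 and 406 CPM at 6 months, with overlap. The lowest p was that of Ndufa11, a complex I subunit (0.18, adjusted p 0.30). The difference between the time courses of the 2 viruses, tested as an interaction, called 0 members (0% of all genes past the adjusted threshold; 36 members unadjusted in edgeR, 0 in DESeq2). The median was 0.35, with 50 of 52 above 0 and a lowest adjusted p of 0.36. All genes with transcripts under 1 kb had a median of 0.30 in that interaction, with 86.0% above 0. Among those with log2 CPM of at least 5 the median was 0.32. The tissue label differs between the 2 upACSS2 times, so tissue and time cannot be told apart in upACSS2 mice. The interaction uses the same groups and has the same limit.

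**Figure D5:**
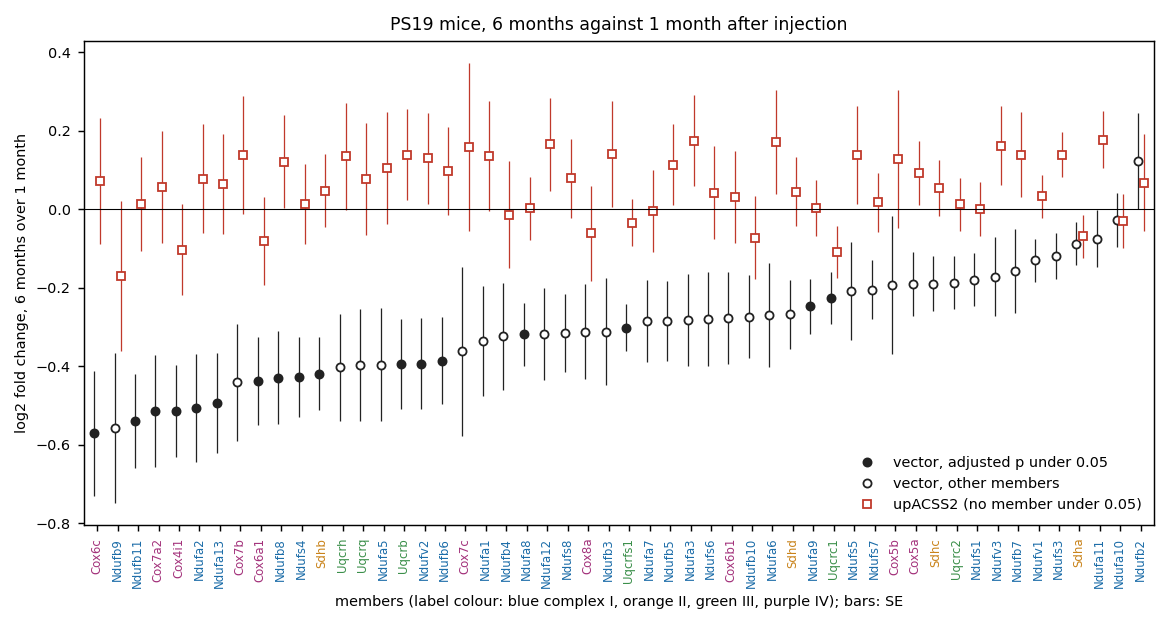
Log2 fold change of 6 months over 1 month after injection in PS19 mice (vertical axis, bars are SE) for the 52 members along the horizontal axis, with circles for vector (filled where called) and squares for upACSS2. The vector circles lie below 0 except that of Ndufb2 (0.12), and the upACSS2 squares lie between -0.17 and 0.18.

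Read across viruses, upACSS2 and vector differed at 0 members at 1 month (0% of all genes; 1 unadjusted in edgeR, 0 in DESeq2; median -0.08). Virus and tissue label cannot be told apart there, as only the upACSS2 group is labelled whole hippocampus. The 6-month groups differed at 0 members (0% of all genes; 38 unadjusted in edgeR, 1 in DESeq2). That 0% is the share past the adjusted threshold, and no share of all genes at the unadjusted one is given. At 6 months 50 of 52 estimates were above 0, the median was 0.31, and 14 members had every upACSS2 library above every vector library (1.33% of all genes). Over all genes with transcripts under 1 kb the median at 6 months was 0.19, with 80.5% above 0. Among those with log2 CPM of at least 5 the median was 0.23. The mean level of the members was 6.46 ± 0.21 against 6.19 ± 0.08 log2 CPM. Uqcrfs1 had the lowest p, at 123, 128, 141, 130 and 118 CPM in upACSS2 and the vector values given above (0.22, adjusted p 0.18). The highest upACSS2 library, replicate 3, had 43.7 CPM of Acss2, inside the vector range, and the largest share of counts from mitochondrial DNA (7.62%).

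Other genes moved beside the PS19 members. In vector mice, 4 of 10 other respiratory subunits (Uqcr11 -0.45), 5 of 16 complex V subunits (Atpif1, the inhibitor of the ATP synthase, -0.46) and 5 of 37 ribosomal protein genes (Rps14 -0.69) were lower at 6 months. Of 12 genes of mitochondrial DNA 0 were called, 11 were below 0 and the median was -0.29, and these genes took 3.48 to 4.09% of counts at 6 months and 4.28 to 5.96% at 1 month. Assembly factors had 1 higher (Cox17 1.49) and 3 lower (Sdhaf4 -0.56) of 41. Tfam, which packages and transcribes mitochondrial DNA, fell by 0.26 (adjusted p 0.043), Gabpb2 rose by 0.45, and Ppargc1a, Nrf1, Gabpa and Esrra were not called. Neuron markers had 0 of 8 called, and 1 of 8 microglia, 2 of 4 oligodendrocyte precursor and 1 of 6 oligodendrocyte markers were higher. In upACSS2 against vector mice at 6 months, choroid plexus markers had a median of 2.87 (summed level 129 to 6056 against 82.4 to 452 CPM) with 0 of 4 called, and 37 of 37 ribosomal protein genes and 12 of 12 genes of mitochondrial DNA were above 0. The part of these in the member values was not tested.

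The count of 17 in vector mice depended on single libraries. It was 4 without vector 1-month replicate 1, 5 without replicate 2 and 10 without replicate 4 of that group, and 11, 7, 5 and 9 without vector 6-month replicates 1, 3, 4 and 5. A fit without upACSS2 6-month replicate 3, which shares the estimate of spread but neither group, called 28. DESeq2 called 27, and 11 were called with no filter on low counts or with the length trend removed.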

How the data were processed

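Raw counts per gene, as the authors deposited them in 6 tables, were used for 98 libraries. The submitters' processing notes name STAR, featureCounts, HTSeq and DESeq2 and the build mm10, without a version or role for each; strand settings are not given in the sources used here. Rows of the culture without virus that name no gene (6.13 to 8.74% of counts) were left out, and 0 sample columns were unused.

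edgeR 4.0.16 in R 4.3.3 fitted each table, with TMM scaling, filterByExpr by group, a quasi-likelihood F test (two-sided) and Benjamini-Hochberg adjustment over all genes tested, threshold 0.05. Day 9 and day 21 were fitted apart, and all 24 unstimulated libraries together for day 21 against day 9. In all, 23 comparisons and 6 interactions were fitted. Shares of all genes called refer to the adjusted threshold. Counts of members at unadjusted p under 0.05 have no matching share of all genes here and are not read as results. Complex means are means of log2 CPM (prior count 2). DESeq2 1.42.0, limma 3.58.1, other scalings and filters, and fits with 1 library left out (98 fits) were alternatives. No aged mouse library was left out in these fits. Each unstimulated neuron library was left out both in the fit of its day and in the joint fit. After seeing the data, a trend of log2 CPM with transcript length (lowess span 0.3) was also removed. The test was also run on simulated counts with known changes. Those counts were drawn independently for each gene, so they do not bear on trends shared by short genes.

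Named genes are, per comparison and complex, up to 3 members in each direction with the largest change past the threshold and no overlap of libraries, all 4 Sdh genes for culture day, and otherwise the lowest p. From the other lists, the largest change past the threshold is named, and Ppargc1a, Nrf1, Gabpa, Esrra and Tfam may be named anywhere. Cox7c with tau, Cox4i1 in upACSS2 mice, Cox5a, Ndufs4, Ndufs7 and Ndufa6 outside these rules were chosen after their values were seen. Members and lists were chosen with earlier results of these data known.

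Of 242 pairs of libraries within groups, none was a duplicate (lowest chi-square per gene 2.24). Same-numbered replicates deviated together in every pair, with all correlations over 0.1, for stimulated upACSS2 against vector with tau (0.11 to 0.36), stimulated tau against PBS in vector (0.13 to 0.33) and the culture without virus (0.22 to 0.39), but not elsewhere. The labels give no shared source for a number.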

Additional observations from a re-analysis of the deposited data

Results flagged for a closer look

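In 82 sets of 4 to 10 libraries (complex means and named members by group), 8 had a library farther from the rest than Dixon's 95% level. Chance gives about 1 in 20 for independent sets. These sets share libraries and genes, so the 8 cannot be set against that rate. Replicate 3 of the 10-month upACSS2 mice was the lowest of its group in complex I (5.63 log2 CPM, next 5.96), complex III (6.59, next 6.81), complex IV (6.66, next 7.04) and all members (6.05, next 6.39), and had the fewest counts of all 98 libraries. Replicate 4 of the PS19 vector mice at 6 months was the lowest in complex III (6.60, next 6.69) and complex IV (6.57, next 6.85). Replicate 3 of the PS19 upACSS2 mice at 6 months was the highest in Cox4i1 (578 CPM, next 447) and Cox6c (316 CPM, next 214).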

How the results depend on the processing

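Over all comparisons, counts of members called stayed within 1.5 times under 384 alternatives and moved under 31. Medians stayed under 296 and moved under 9. With the length trend removed, the median was 0.16, 0.19, 0.25 and 0.24 in the culture day arms (vector with PBS, vector with tau, upACSS2 with PBS, upACSS2 with tau), -0.05 for upACSS2 in day 9 PBS neurons, 0.02 for upACSS2 in day 21 tau neurons, 0.12 for PS19 upACSS2 at 6 months and -0.15 for PS19 vector 6 months against 1 month. Without upACSS2 PBS replicate 2, stimulated tau against PBS in upACSS2 was 0.00. Complex means stayed under 324 and moved under 21. Of these, 18 were culture day rises, larger with total counts and no further scaling. The others were complex II for upACSS2 in day 9 tau neurons, 0.03 with total counts and with RLE size factors against 0.04, and complex III for stimulated tau against PBS in upACSS2, -0.09 with total counts against -0.04. Named members kept their direction and side of the threshold 785 times, lost the call 69 times and reversed once: Uqcrq, day 21 against day 9 in vector with PBS, was -0.028 (adjusted p 0.73) with the length trend removed. The counts that moved were tau against PBS in day 9 vector neurons, 10 with no filter on low counts, 4 in DESeq2, 0 with only the 2 groups and 0 in the fit to 24 libraries; the day 9 interaction of virus and tau, 11 with no filter and 6 in DESeq2; upACSS2 against vector in PBS neurons, 0 at day 9 and 3 at day 21 in the fit to 24 libraries; stimulated tau against PBS in vector, 1 with the length trend removed; PS19 upACSS2 against vector at 6 months, 1 in DESeq2; and PS19 vector 6 months against 1 month, 11 with no filter, 27 in DESeq2, 11 with the length trend removed and 28 without upACSS2 6-month replicate 3. Leaving out 1 library of the groups compared at a time gave 0 to 11 and 0 to 11 for the first 2 of these, 7 to 19 for upACSS2 in day 9 PBS neurons, 4 to 19 for PS19 vector, and 27 to 46, 31 to 43, 31 to 42 and 25 to 31 for the 4 culture day arms. The cause was not tested.

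With the replicate number as a block, the counts were 18 for upACSS2 in day 9 PBS neurons, 41, 39, 42 and 33 for the culture day arms and 13 for PS19 vector, and no comparison gained or lost its calls. The samples share only a number there. The biological coefficient of variation, which limits what each fit resolves, was 0.0420 at day 9, 0.189 at day 21, 0.141 at 10 months, 0.149 in aged mice and 0.193 in PS19 mice.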

Other observations

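Cox17, a chaperone that delivers copper to cytochrome oxidase, changed in several comparisons. It rose between day 9 and day 21 in all 4 arms, by 1.11 in vector with PBS, 1.29 in vector with tau, 1.46 in upACSS2 with PBS and 1.01 in upACSS2 with tau on the log2 scale (edgeR adjusted p from 3.4e-07 to 2.6e-05). It fell by 0.59 with upACSS2 in day 9 PBS neurons, as the oxidase subunits Cox7c and Cox6c did. In PS19 vector mice at 6 months it rose by 1.49 (adjusted p 0.0012) where 17 members fell. The change of Cox17 in PS19 upACSS2 mice was 1.06 (adjusted p 0.12), so the direction was shared by both viruses while the call was made in one. These names were chosen after the values were seen.

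Cox6a2, the muscle isoform of Cox6a1, rose between culture days in all 4 arms, by 3.20, 3.32, 3.44 and 2.62 in the order vector with PBS, vector with tau, upACSS2 with PBS and upACSS2 with tau. Pseudogenes also took reads that differed between tables: Ndufa12-ps held 27.2 to 39.5 CPM in the culture without virus, 12.9 to 32.5 CPM in PS19 mice and 6.10 to 9.90 CPM in aged mice, so the level of its parent Ndufa12 is uncertain between these tables.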
